A study of Mus musculus with 12 samples.

Results

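Antibody-secreting cells that carried RNA of genes of cell division are described here in mouse bone marrow, spleen and thymus. They are called cycling cells below. The cells were chosen by a rule on measured counts of unique molecular identifiers (UMIs, 1 per captured RNA molecule). A barcode was kept if it held at least 1000 UMIs outside immunoglobulin genes, under 10% mitochondrial UMIs, and at least 50% of its light-chain variable UMIs in 1 gene. A kept cell was cycling if it held at least 5 UMIs summed over 6 genes (the rule genes), Mki67, Top2a, Cdk1, Birc5, Ube2c and Ccnb2. The rule found 569 cycling cells among 8700 kept cells, out of 39949 barcodes in the filtered lists of 6 gene expression libraries. They are compared with the 4965 kept cells that held no UMI of the 6 genes (no-marker cells), within each library.

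Each library came from a pool of 3 mice of 1 sex, 3 months old, and there was 1 library for each sex in each tissue. All mice carried the Prdm1-eYFP reporter, in which the Prdm1 gene drives a yellow fluorescent protein, on a C57BL/6 background, and the labels name no treatment. Cells were sorted as eYFP-positive and CD138HI, without IgD and without CD90.2, and with or without B220, before droplet capture with the 10x 5' v1.1 kit. The gate itself therefore selected on the products of Sdc1 (CD138) and on activity of the Prdm1 locus. The libraries serve as the replicates. With 1 library for each sex in each tissue, p-values measure how a difference varied over libraries of unlike tissue or sex. They do not measure a spread between replicate pools of mice. The labels do not say whether tissues of 1 sex came from the same mice.

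Plasmablasts are B cells that have begun to secrete antibody and still divide, while plasma cells are their non-dividing, long-lived descendants. The transcription factors Blimp-1 (Prdm1), IRF4 and XBP1 drive the change from B cell to secreting cell, and the J chain (Jchain) links IgM and IgA into polymers. In the cell cycle, E2F factors switch on genes of DNA replication, while the MuvB complex acts later with B-MYB and FOXM1 on genes of the G2 phase and mitosis, through a promoter element called the cell cycle genes homology region (CHR), often near CCAAT boxes bound by NF-Y.

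Promoters of 4 of the 6 rule genes, of the replication gene Mcm5 and of the mitotic kinesin gene Kif15 are shown as examples of these elements, chosen because their windows hold them. In windows of the same length, the rule gene Birc5 held none, Ccnb2, Ccnb1 and Kifc1 held CCAAT and no CHR, and the replication genes Mcm3, Pcna and Rrm2 held CCAAT and no E2F letters. Each stretch is the 150 bases before the start of transcription from RefSeq (GRCm38.p6), 5′ to 3′ on the strand of the gene. Capitals mark every match, on either strand, to 4 strings. The string TTTGAA stands for the CHR, CCAAT is the box of that name, and TTTCCCGC or TTTGGCGC stand for E2F. The 4 letter strings do not contain one another, and a match is a match of letters and not a shown binding site.
Mki67, chr7:135716380-135716529, minus strand: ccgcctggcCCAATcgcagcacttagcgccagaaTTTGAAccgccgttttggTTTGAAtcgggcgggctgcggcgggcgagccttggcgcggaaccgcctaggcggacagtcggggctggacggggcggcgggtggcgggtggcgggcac
Top2a, chr11:99024190-99024339, minus strand: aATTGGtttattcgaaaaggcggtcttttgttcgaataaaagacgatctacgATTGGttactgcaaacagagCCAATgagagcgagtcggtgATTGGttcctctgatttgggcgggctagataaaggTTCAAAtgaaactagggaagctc
Cdk1, chr10:69352913-69353062, minus strand: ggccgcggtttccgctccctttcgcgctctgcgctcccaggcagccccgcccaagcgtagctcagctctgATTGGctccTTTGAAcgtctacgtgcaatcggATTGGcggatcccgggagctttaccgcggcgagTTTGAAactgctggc
Ube2c, chr2:164769779-164769928, plus strand: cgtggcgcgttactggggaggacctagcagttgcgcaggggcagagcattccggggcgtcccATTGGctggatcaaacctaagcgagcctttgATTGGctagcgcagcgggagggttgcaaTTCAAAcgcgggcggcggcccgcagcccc
Mcm5, chr8:75109359-75109508, plus strand: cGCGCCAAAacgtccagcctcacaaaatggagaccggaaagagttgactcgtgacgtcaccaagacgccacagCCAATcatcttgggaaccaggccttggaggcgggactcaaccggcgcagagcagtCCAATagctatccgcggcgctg
Kif15, chr9:122950931-122951080, plus strand: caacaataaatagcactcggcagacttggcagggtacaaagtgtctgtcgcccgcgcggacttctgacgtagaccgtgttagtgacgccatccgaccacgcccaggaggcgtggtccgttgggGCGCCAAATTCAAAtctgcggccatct

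The same letters were counted in longer windows, from 250 bases before to 50 after each start. Both CHR and CCAAT were found in 5 of the 6 rule-gene promoters. Of 64 genes on a list for G2 and mitosis that leaves out the rule genes, 52 matched the table, with 56 promoters. A CHR was in 69.6% of these, CCAAT in 80.4%, both in 62.5%, and E2F letters in 5.36%. Of 50 genes on a list for G1/S and DNA replication, 40 matched, with 48 promoters. A CHR was in 14.6% of these, CCAAT in 60.4%, both in 12.5%, and E2F letters in 27.1%. Over the 10051 promoters matched to genes tested below, the shares were 12.3% for CHR, 38.5% for CCAAT, 5.07% for both and 3.2% for E2F. The CHR letters were thus more frequent in the mitosis list than in the replication list or over all, and the E2F letters more frequent in the replication list than in the mitosis list or over all.

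The cycling cells numbered 68 in female bone marrow, 73 in male bone marrow, 311 in female spleen, 93 in male spleen, 9 in female thymus and 15 in male thymus. As a share of kept cells this was 5.53% in the female marrow library, with an exact 95% binomial interval of 4.32 to 6.96%, and 4.39% (3.46 to 5.49%) in the male one. They were 8.72% in female spleen (7.82 to 9.70%) and 5.03% in male spleen (4.08 to 6.12%). In the thymus they were 8.49% in females (3.96 to 15.5%) and 5.24% in males (2.96 to 8.50%). The intervals cover counting error only, and no test between tissues was run on these shares. The female library held the larger share in each tissue by this rule. In the thymus the order turned at 10 rule-gene UMIs, with 2.83% in females and 3.5% in males, and at a light-chain purity of 80%, with 4.05 and 5.43%. For the sexes, 3 libraries against 3 cannot reach an exact p under 0.10.

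Because 5 UMIs are easier to reach in a deeper cell, the shares were also taken after each cell was thinned to 1000 UMIs outside immunoglobulin genes, with 2 rule-gene UMIs required. They then ran, in the same order of libraries, 5.69%, 4.27%, 7.12%, 6.32%, 7.55% and 4.90%. The female spleen stayed the higher of the 2 spleen libraries, by less than before.

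**Figure D1:**
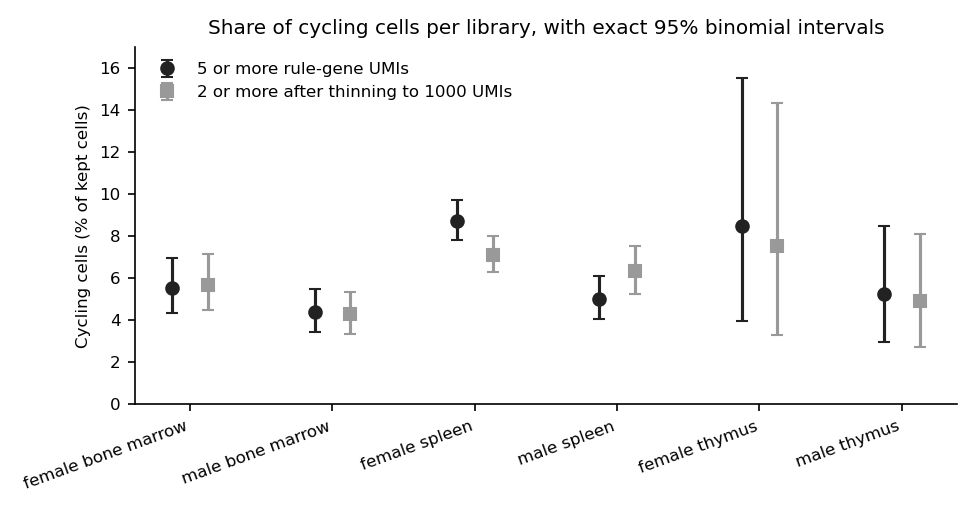
Share of cycling cells among kept cells of each library (vertical axis, percent), with exact 95% binomial intervals as bars. Black points use the rule of 5 UMIs and grey squares 2 UMIs after thinning each cell to 1000. The female spleen point at 8.72% lies above the male spleen and bone marrow intervals, and the thymus intervals are the widest.

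The rule genes themselves are described without a test, since they chose the cells. Ki-67 (Mki67), a protein that coats mitotic chromosomes, had a UMI in 561 of the 569 cells. Topoisomerase IIα (Top2a), which untangles DNA, had one in 460, survivin (Birc5), of the chromosomal passenger complex, in 390, the ubiquitin-conjugating enzyme Ube2c in 368, cyclin B2 (Ccnb2) in 338 and the kinase Cdk1 in 318. All 6 genes were found in 179 cells and 1 gene alone in 34. The median was 25 rule-gene UMIs per cycling cell, with a range of 5 to 152. At the threshold itself, 95 kept cells held 4 such UMIs and 46 held 5, while 429 held 10 or more. In female spleen, immunoglobulin was a median of 47.8% of UMIs in cells with 4 rule-gene UMIs and 49.8% in cells with 5. The same values were 44.3 and 46.2% in male bone marrow, 32.0 and 22.9% in female bone marrow, and 47.0 and 40.9% in male spleen.

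Free RNA in the droplets also held rule-gene UMIs. In barcodes outside the filtered lists they made up 369 to 606 counts per 1000000 UMIs outside immunoglobulin genes. A cycling cell of median depth would hold 6.64 rule-gene UMIs in female spleen if all of its RNA were free, and 1.43 to 3.87 in the other libraries. Against a bound computed this way for each cell, all 73 male bone marrow cells, 66 of 68 in female bone marrow, 277 of 311 in female spleen, 90 of 93 in male spleen and all 24 thymus cells held more.

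The label of a plasmablast was checked against markers. Of genes of antibody-secreting cells, Xbp1 was at 2329 to 3027 CPM in the cycling cells and Prdm1, part of the gate, at 863 to 1261 CPM. In the 4 bone marrow and spleen libraries Mzb1 was higher than in no-marker cells, and Xbp1, Jchain, Sdc1 and Tnfrsf17 were lower. Prdm1 and Irf4 were not called. Tnfrsf17 was at 0 CPM in female thymus cycling cells, and Jchain lay below its free RNA level in every library. From here on CPM is counts per 1000000 UMIs, after removing immunoglobulin genes and the rule genes, summed over the cells of a state in a library. Cd3e of T cells, Csf1r of macrophages, Siglech of plasmacytoid dendritic cells, Igll1 of B cell precursors and Krt5 and Foxn1 of thymic epithelium had no UMI in any cycling cell, while Trac of T cells had up to 8 UMIs in a library, C1qa of macrophages up to 5 and Vpreb1 of B cell precursors up to 3. The sort removed cells with CD90.2, a marker of T cells. Among the lists of genes of other cell types, the 16 T cell genes summed to 77.8 to 288 CPM, with 4 to 9 genes detected, against 48.5 to 256 CPM in no-marker cells and higher in cycling cells in 6 of 6 libraries, and the 12 erythroid genes to 0 to 20.3 CPM. The part of such RNA in the results was not tested. The dendritic cell list of 11 genes summed to 537 to 1223 CPM, close to the 651 to 981 CPM of no-marker cells. The lists for macrophages (13 genes), B cell precursors (11) and stroma with thymic epithelium (12) summed to 0 to 214, 46.4 to 144 and 63.3 to 196 CPM. The 10 stem and progenitor genes summed to 1403 to 5074 CPM in cycling and 1704 to 3378 CPM in no-marker cells.

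The neutrophil list of 11 genes was the exception. It summed to 4734 CPM in female and 8968 CPM in male bone marrow, and to 0 in spleen and thymus cycling cells. A single cell held 3132 of these UMIs in female bone marrow (99.05% of those in the library's cycling cells) and another held 7477 in male bone marrow (99.6%). These 2 cells pass the rule with 6 and 9 rule-gene UMIs, and results that rest on them are given without them as well. Barcodes were also shared between libraries: 34 of the 569 cycling barcodes were in the filtered list of another gene expression library, and 7 of them were kept there.

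The cycling cells were richer in RNA. Medians of UMIs outside immunoglobulin genes were 5358 in cycling against 2608 in no-marker cells of female bone marrow, 7512 against 3601 in male bone marrow, 10953 against 3536 in female spleen, and 6888 against 2986 in male spleen. In the thymus they were 2622 against 2035 in females and 7858 against 2427 in males. The rule favours deep cells, so this is a description. Of the 569 cells, 168 lay above the 99th percentile of UMIs of no-marker cells of their library; no doublet caller was run, and the light-chain rule was the only step against doublets. Gene tests used the 4 libraries with at least 20 cycling cells, with summed UMIs per library and state of 664188 to 8742052, and thymus levels are given beside them without a test.

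Cell cycle genes followed the rule genes, which is a description and not a test. In edgeR's quasi-likelihood fit with library as a block, 2547 of 9944 genes were higher in cycling cells (25.6%) and 2509 lower (25.2%) at an adjusted p under 0.05, and the median log2 fold change of all genes was -0.07. Counts over a list are of its genes that passed the filter on low counts. For the lists below these were 10 of 13 entry regulators, 20 of 23 inhibitors, 29 of 38 B cell genes, 23 of 28 surface genes and 21 of 35 interferon genes. They were 13 of 20 immediate early genes, 14 of 18 germinal centre genes and 54 of 67 histones. They were also 43 of 44 genes of the endoplasmic reticulum, 18 of 19 glycolysis and amino acid uptake genes and 93 of 101 cytosolic ribosomal protein genes. All 50 genes of the replication list were higher, with a median of 3.06. Of 64 genes of the G2 and mitosis list, 63 were higher, with a median of 5.24. Rrm2, the small subunit of ribonucleotide reductase, was at 776, 796, 610 and 694 CPM in cycling cells of female and male marrow and female and male spleen, against 9.35, 10.4, 21.3 and 16.2 CPM in no-marker cells. Tuba1b, an α-tubulin, was at 1117, 1098, 758 and 770 CPM against 65.1, 67.7, 57.7 and 56.8. Both genes had states that did not overlap in these 4 libraries. Here and below, a lack of overlap describes the printed values, and its frequency over all genes tested was not counted.

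Outside these lists and the histones, genes of at least 50 CPM in a state that moved alike in the 4 libraries were ranked. Genes of division go with the rule genes, so their rises are a description and not a test. The 12 largest rises included genes with known roles in division and in DNA repair. Among them were Kifc1 and Kif15 (kinesins of the spindle), Cit and Cep55 (cytokinesis), Stil (centriole duplication), Esco2 (cohesion of sister chromatids), Neil3 and Rad51ap1 (DNA repair), Pclaf (a partner of PCNA), the phosphatase gene Cdkn3, and Shcbp1. Log2 fold changes ran from 5.66 for Rad51ap1 to 6.92 for Kifc1. Neil3 rose from 0.603, 0.360, 0.570 and 0.799 CPM to 58.4, 89.5, 42.1 and 133 CPM in the 4 libraries in the same order. Fitted folds of genes this close to 0 in no-marker cells depend on the prior count.

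Histone genes, which are transcribed mainly while DNA is copied, were higher in 48 of the 54 tested and lower in 2, with a median of 2.35. Summed over all, they reached 4749, 5150, 3336, 3773, 2367 and 6169 CPM in cycling cells, in the order female and male marrow, female and male spleen, female and male thymus. The no-marker cells held 570, 559, 962, 931, 642 and 625 CPM. Other chromatin and DNA-packaging genes were higher in 23 of 24, with a median of 1.39, beside 25.6% higher over all genes tested. Hmgn2, a nucleosome-binding protein, rose by 4.04 and Hmgb1 by 1.81 on the log2 scale, and Hmgb1 reached 1488 to 1914 CPM in the 4 libraries. The histone variant gene H2afz rose by 2.59.

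The balance of the 2 lists within a cell is a description, since the rule genes belong to G2 and mitosis and favour that side. More UMIs came from the mitosis list than from the replication list in 450 of the 569 (79.1%, exact 95% interval 75.5 to 82.4%), fewer in 104 (18.3%, 15.2 to 21.7%), and 15 were tied. These intervals cover counting error only, over cells pooled from all libraries, 311 of them from female spleen. Cells on the mitosis side held a median of 32 rule-gene UMIs and cells on the replication side 14.5, and their median histone levels were 3062 and 1756 CPM. The lists were also unequal in no-marker cells, at 913 CPM for mitosis and 695 CPM for replication in female bone marrow. The balance depends on which genes the lists hold, and 146 cells lay within a share of 0.1 of even. The share leaning to replication was 17.6 and 19.2% in female and male marrow, 17.4 and 19.4% in female and male spleen, and 33.3 and 20% in the thymus, where it rests on 3 cells each. Across the 4 libraries with more cells it stayed between 17.4 and 19.4%.

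Of 10 D cyclins, partner kinases and growth regulators, which act at entry into the cycle, 5 were higher and 2 lower, beside 25.6% higher and 25.2% lower over all genes. Cyclin D2 (Ccnd2) was at 260, 349, 247 and 368 CPM against 199, 131, 195 and 159 CPM, which is 0.78 ± 0.13 (SE) on the log2 scale with an adjusted p of 5.94e-05, while cyclin D3 (Ccnd3) did not pass at 0.07. The kinase genes Cdk4 and Cdk2 rose by 0.83 and 1.20. Myc, a driver of growth, had a log2 fold change of 0.60 (adjusted p = 0.0236), was higher in 3 of 4 libraries, and did not pass in 8 of the alternatives run. Mxd4, a MYC antagonist, fell by 0.58 on the log2 scale.

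Of 20 inhibitors and genes of quiescence, 6 were higher and 4 lower, with a median of -0.02, near the shares over all genes (25.6% higher and 25.2% lower). The INK4 inhibitor Cdkn2c (p18) was at 70.4, 71.6, 60.6 and 81.5 CPM in cycling cells and at 24.7, 23.8, 34.4 and 28.8 CPM in no-marker cells. The 2 sets do not overlap, and the log2 fold change was 1.22 ± 0.14 (adjusted p = 4.85e-07). Klf2, a factor known for quiescence and migration, rose by 1.3, and in the thymus it was lower in cycling cells, at 36.0 against 77.3 CPM in females and 6.21 against 11.04 CPM in males. Cdkn1b (p27) fell by 0.54, Txnip by 1.19 and the p53 target Trp53inp1 by 1.20 on the log2 scale. Cdkn1a (p21) was near 0, with 1, 4, 14, 2, 0 and 0 UMIs in the cycling cells of the 6 libraries.

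Antibody RNA made up less of each cycling cell. Immunoglobulin genes were a median of 23.8% of UMIs in cycling against 46.0% in no-marker cells of female bone marrow, 27.7 against 53.7% in male bone marrow, 34.0 against 56.8% in female spleen, and 28.9 against 53.8% in male spleen. They were 14.3 against 43.2% in female thymus and 25 against 45.0% in male thymus. The share was lower in 6 of 6 libraries, with a mean difference of -24.1 percentage points (SD 3.13, n = 6). An exact two-sided sign-flip test over the libraries gave p = 0.03125, the smallest it can give, and 0.0625 after Benjamini-Hochberg adjustment over 6 measures. Against no-marker cells limited to the depths of the middle 80% of cycling cells, the mean difference was -29.8 percentage points. The exact sign-flip p was again 0.03125, with 0.04688 after adjustment. The adjusted value was smaller because more of the 6 measures reached that p. Among them were mitochondrial share and light-chain purity, which entered the choice of cells, so the smaller value is not a stronger result.

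Counts per cell depended on which no-marker cells were compared. Median immunoglobulin UMIs per cell were 1661 in cycling and 1999 in no-marker cells of female bone marrow, 2807 and 3842 in male bone marrow, 5318 and 4797 in female spleen, and 2949 and 3204 in male spleen. In the thymus they were 741 and 1571 in females and 2139 and 1941 in males. Cycling cells thus had the lower median in 4 of the 6 libraries. No-marker cells in the depth range of the cycling cells held 8890, 13024, 10811 and 4574 in the bone marrow and spleen libraries, and 2021 and 11194 in the thymus, above the cycling cells in each library.

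**Figure D2:**
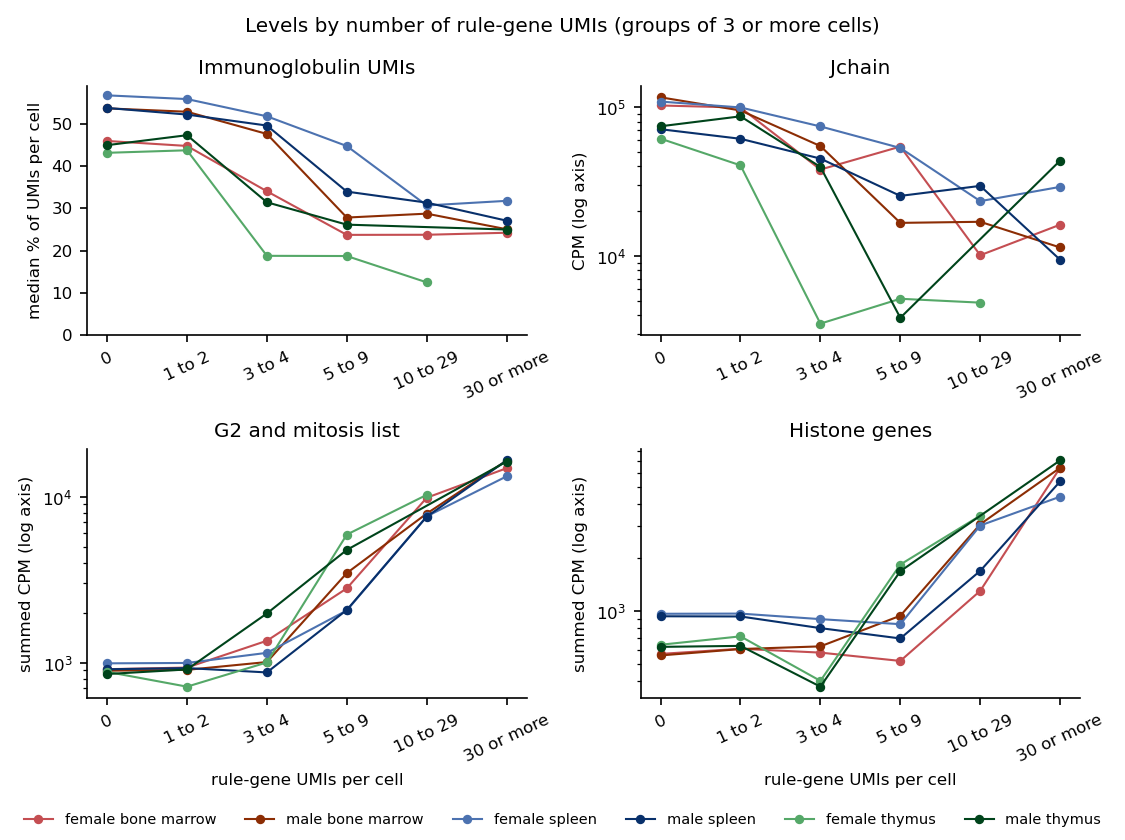
Levels by the number of rule-gene UMIs a cell held (horizontal axes), 1 line per library: median immunoglobulin share of UMIs (percent, linear axis), and Jchain, the G2 and mitosis list and histone genes (CPM, log axes). In female spleen the immunoglobulin share goes from 56.8% at 0 UMIs and 55.9% at 1 to 2 UMIs to 31.8% at 30 or more.

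The graded view shows where the states part. In female spleen, the immunoglobulin share was 56.8% with no rule-gene UMI, 55.9% with 1 to 2, 51.8% with 3 to 4, 44.8% with 5 to 9, 30.7% with 10 to 29 and 31.8% with 30 or more. In male spleen the same groups had 53.8, 52.3, 49.6, 34.0, 31.4 and 27.1%. In female bone marrow they had 46.0, 44.8, 34.1, 23.7, 23.8 and 24.2%, and in male bone marrow 53.7, 52.9, 47.7, 27.8, 28.8 and 25.1%. Cells with 1 to 2 UMIs lay within 2 percentage points of the no-marker cells in these 4 libraries, and the bone marrow values were already low at 5 to 9 UMIs.

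Jchain fell in every library tested. It was at 22300, 13110, 31250 and 16610 CPM in cycling cells of female and male marrow and female and male spleen, and at 102500, 116300, 108900 and 71020 CPM in no-marker cells. In the thymus it was at 5072 and 36090 against 61370 and 74340 CPM. The 2 states did not overlap in the 6 libraries, and the log2 fold change over the 4 tested was -2.36 ± 0.17 (SE, adjusted p = 2.72e-10). Free RNA outside cells held 58319 to 88207 CPM of Jchain, above the level in cycling cells of every library, and its part in these levels was not tested.

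In the wider list of plasma cell identity, 14 of 28 genes were lower and 6 higher, with a median of -0.30. Over all genes tested 25.2% were lower and 25.6% higher, so the higher side was near its share over all genes. Sdc1, the gene of the sort marker CD138, was at 192, 244, 176 and 232 CPM in cycling cells and 403, 547, 310 and 421 CPM in no-marker cells (log2 fold change -1.02 ± 0.10, adjusted p = 2.04e-08). Tnfrsf17, the survival receptor BCMA, was at 65.9, 58.5, 140 and 111 against 276, 278, 316 and 267 CPM (-1.62, adjusted p = 8.56e-09). Both genes were lower in all 4 libraries without overlap of the states. The surface receptor gene Slamf7 fell by 0.69 and the disulphide isomerase gene Txndc5 by 0.80 on the log2 scale.

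The transcription factors of the programme moved less. Xbp1 was at 2550, 2627, 2794 and 3027 CPM against 3046, 3620, 3758 and 3727 CPM, a log2 fold change of -0.41 (adjusted p = 0.000487). Prdm1, whose reporter defined the gate, was at 867, 1139, 863 and 897 against 855, 1041, 816 and 806 CPM (0.05, adjusted p = 0.665). Irf4 did not pass either (-0.20, adjusted p = 0.101). Mzb1, a chaperone-like protein of the endoplasmic reticulum (ER) that aids IgM assembly, went the other way, at 6580, 6355, 9933 and 5855 against 4123, 3614, 8352 and 4664 CPM (0.47, adjusted p = 0.000628), a call not made against no-marker cells in the depth range of the cycling cells (0.13).

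**Figure D3:**
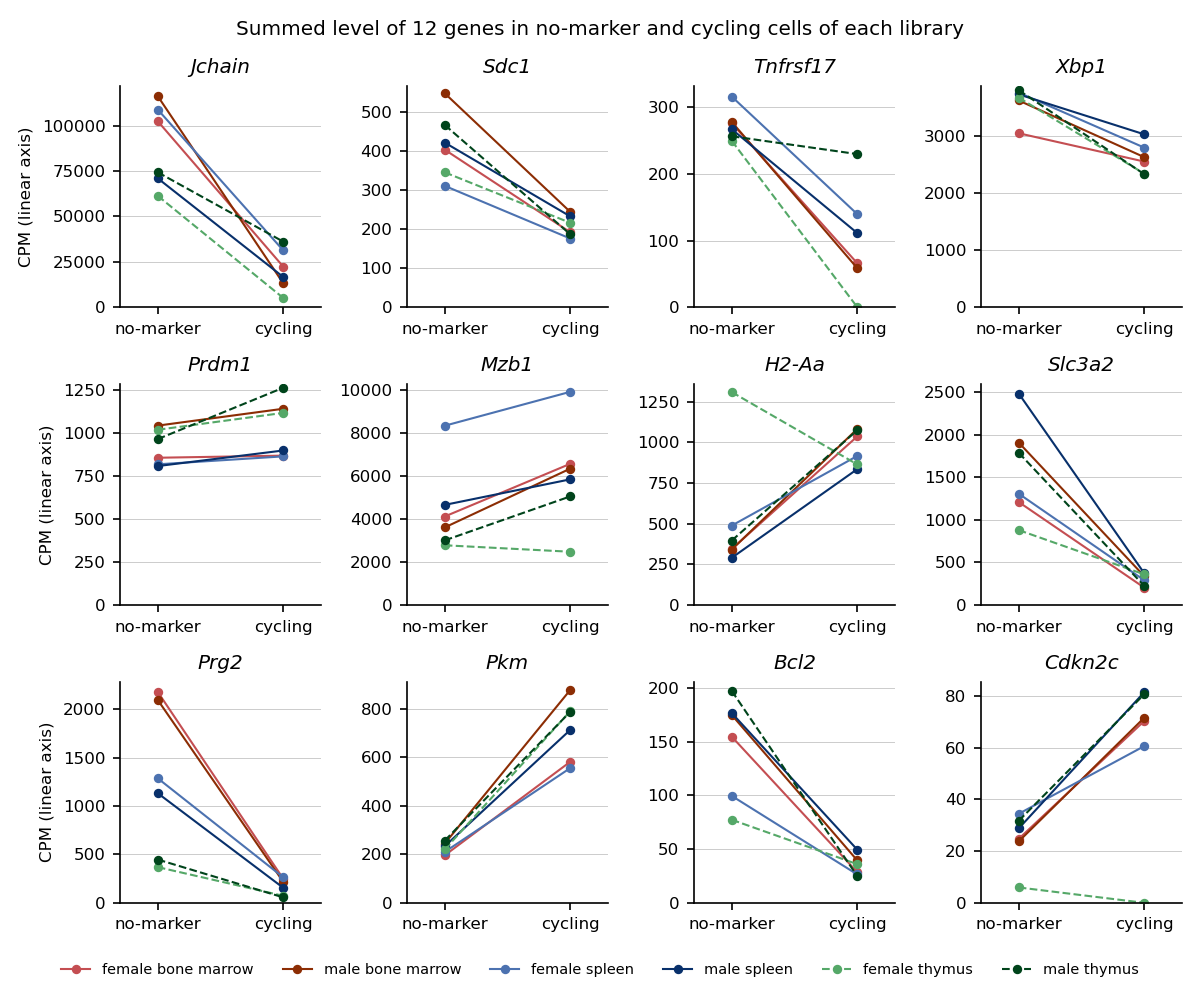
Summed level (CPM, linear axes from 0) of 12 genes in no-marker and cycling cells, with 1 line per library; dashed lines are the thymus libraries, which hold 9 and 15 cycling cells. Jchain, Sdc1, Slc3a2, Prg2 and Bcl2 are lower in cycling cells along every line, and Pkm is higher along every line.

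Falls were ranked in the same way, among genes of at least 50 CPM in a state that moved alike in all libraries tested. Outside the lists that follow the rule, the 12 largest falls so ranked were of mixed function. Slc3a2, the heavy chain of the amino acid transporter CD98, was at 204, 338, 290 and 372 CPM in cycling cells and 1210, 1909, 1308 and 2485 CPM in no-marker cells (-2.53 ± 0.10, adjusted p = 5.66e-14). Prg2, which encodes a granule protein best known from eosinophils, was at 247, 215, 262 and 154 against 2178, 2095, 1286 and 1132 CPM (-2.91 ± 0.13, adjusted p = 3.03e-13). Lag3, an inhibitory receptor, was at 16.5, 13.1, 10.9 and 13.6 against 110, 126, 79.7 and 109 CPM (-2.99, adjusted p = 7.72e-13). In each of the 3 genes every cycling value was below every no-marker value of these libraries. They were ranked by size among genes that moved alike, which favours such a separation, so this is a description. The others were Jchain, Il13ra1 (-2.97), Tmem150a (-2.87), the cholesterol exporter gene Abca1 (-2.65), Zfp467 (-2.54), Lpp (-2.48), Lgals3bp (-2.41), Pls1 (-2.40) and Serpina3g (-2.35). All 24 genes ranked by these rises and falls kept their call in every alternative that gave them a value.

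Of 29 genes of B cell identity and antigen presentation, 10 were higher and 11 lower, with a median of -0.08 that was near the -0.07 of all genes, of which 25.6% were higher and 25.2% lower. H2-Aa, a chain of MHC class II, was at 1036, 1082, 916 and 835 CPM in cycling cells against 344, 341, 488 and 290 CPM (1.36 ± 0.10, adjusted p = 1.23e-09). H2-Ab1 rose by 0.96. Cd74, the invariant chain, was lower at 9625, 10990, 9453 and 9808 against 13260, 14670, 14690 and 11950 CPM (-0.50, adjusted p = 0.000131). Cd79a, of the B cell receptor complex, fell by 1.25 and Ms4a1 (CD20) by 0.66 on the log2 scale. Ptprc, whose product carries B220, did not pass at 0.03. In female thymus H2-Aa ran the other way, at 863 CPM in its 9 cycling cells against 1308 CPM.

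Genes of metabolism were mostly higher, beside 25.6% higher and 25.2% lower over all genes tested. Of 18 glycolysis and amino acid uptake genes, 11 were higher and 4 lower, with a median of 0.52. The lowest of them was Slc3a2 of amino acid uptake, at -2.53. Pyruvate kinase (Pkm) was at 582, 879, 556 and 714 CPM against 196, 244, 210 and 233 CPM (1.56 ± 0.09, adjusted p = 9.54e-12), and at 791 and 789 against 220 and 257 CPM in the thymus. Gapdh rose by 1.20, while aldolase A (Aldoa) fell by 0.53 on the log2 scale. Of 26 genes of nucleotide and one-carbon synthesis, 18 were higher and 4 lower, with a median of 0.63, among them Nme1 (1.01). Of 25 ribosome biogenesis genes, 18 were higher and none lower, with a median of 0.56. Npm1 rose by 0.80, Ncl by 0.82 and Nop58 by 1.36. These counts are of the main fit only. Nme2, of nucleotide synthesis, and Nop10, of ribosome biogenesis, turned sign under some alternatives, with values given in the section on processing.

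Nuclear genes of mitochondrial respiration were higher in 31 of 34, with a median of 0.60, beside 25.6% higher and 25.2% lower over all genes tested. Atp5g3 of the ATP synthase rose by 1.03. The count was 19 higher and 2 lower against no-marker cells in the depth range, 11 and 3 in cells under 10% ribosomal protein UMIs, and 12 and 0 without the library block. The 13 mitochondrially encoded genes went the other way, with 12 lower and a median of -0.55, including mt-Cytb (-0.73) and mt-Co1 (-0.46). The mitochondrial share per cell has another base, all UMIs with immunoglobulin included, and immunoglobulin was lower in cycling cells. Its median was higher in cycling cells in 4 of 6 libraries, by 0.74 percentage points on average, and by 0.42 without female thymus. Against no-marker cells in the depth range it was higher in 6 of 6, by 1.59 points. Cells were kept by this share, so these values are a description.

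Over all genes tested 25.6% were higher and 25.2% lower. Cytosolic ribosomal protein genes were higher in 58 of 93 and lower in 2, with a median of 0.30, and this direction turned with the cells compared. It was 14 higher and 21 lower with a median of -0.10 against no-marker cells in the depth range, whose depth was closer and not equal (a median of 3751 UMIs outside immunoglobulin genes against 6888 in male spleen), and 7 and 27 with a median of -0.14 in cells under 10% ribosomal UMIs. Cells with at least 10% ribosomal UMIs were 63.0% of cycling and 47.5% of no-marker cells in female spleen, 39.7 and 31.2% in female bone marrow, 32.9 and 35.6% in male bone marrow, and 20.4 and 17.7% in male spleen. The part of this mixture in the changes was not tested beyond those fits.

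The secretory machinery was not lower as a whole. Of 43 genes of ER folding, translocation and stress, 25 were higher and 8 lower, with a median of 0.38. Over all genes tested 25.6% were higher and 25.2% lower. Hsp90b1, the ER chaperone GRP94, was at 12680, 16450, 15840 and 22100 CPM against 6431, 6744, 10390 and 12600 CPM, a log2 fold change of 0.87, and Hspa5 (BiP) rose by 0.51. Sec61b of the translocon rose by 0.67 and was at -0.16 in cells under 10% ribosomal UMIs. The translocon-associated gene Ssr4 fell by 0.76 on the log2 scale.

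**Figure D4:**
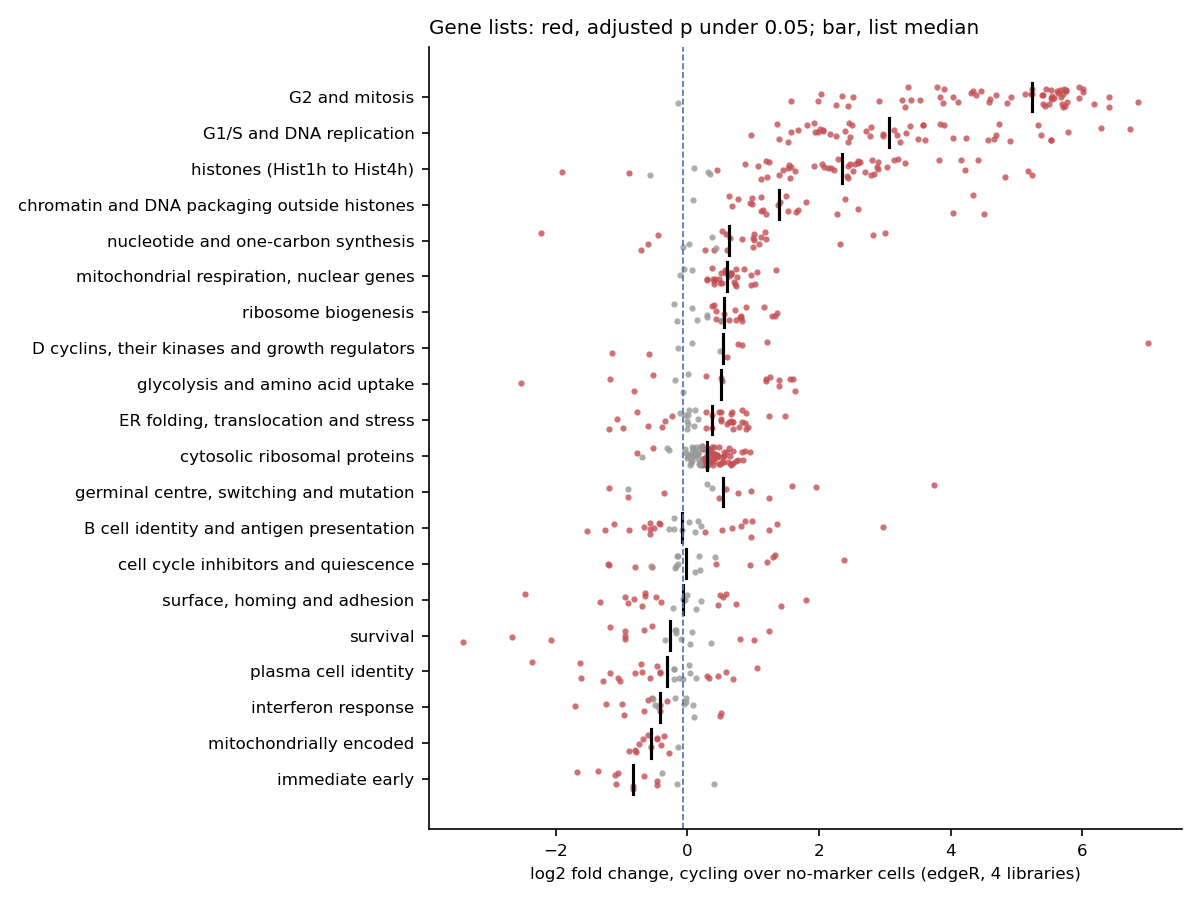
Log2 fold change of each gene, cycling over no-marker cells (horizontal axis, edgeR, 4 libraries), for 20 gene lists; red points pass an adjusted p under 0.05, bars are list medians, and the dashed line is the median of all genes, -0.07. The 2 cell cycle lists and the histones, which go with the rule, lie farthest right at medians of 5.24, 3.06 and 2.35, and the immediate early list farthest left at -0.82.

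Of 20 genes for and against cell survival, 9 were lower, 3 higher and 8 not called, with a median of -0.27. Over all genes tested 25.2% were lower and 25.6% higher. Bcl2, an inhibitor of apoptosis, was at 28.4, 39.4, 26.4 and 49.4 CPM against 155, 175, 99.5 and 177 CPM (-2.08, adjusted p = 1.31e-11). Its states did not overlap. The largest fall in the list was in Bbc3 (PUMA), which promotes apoptosis and is named after its values were seen, at 1.5, 1.19, 1.52 and 2.47 CPM against 15.1, 25.5, 14.1 and 20.8 CPM (-3.40, adjusted p = 2.14e-08). Its cycling values are close to 0, so the size of the fitted fold depends on the prior count. Mcl1, on which plasma cells are known to depend, fell by 0.53, and the kinase genes Pim1 and Pim2 by 0.95 each on the log2 scale.

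Of 23 genes for surface, homing and adhesion proteins, 7 were higher and 10 lower, with a median of -0.06, beside 25.6% higher, 25.2% lower and a median of -0.07 over all genes. The chemokine receptor gene Cxcr4 rose by 0.58 and Cd47 by 0.54, while the Ly6 genes Ly6c2, Ly6d and Ly6e fell by 0.81, 0.95 and 0.69 on the log2 scale. In female and male thymus Ly6c2 was at 863 and 7725 CPM in cycling and 9926 and 6984 CPM in no-marker cells, and it spanned 333 to 1668 CPM in the 4 other libraries in either state.

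Immediate early genes, which respond within minutes to stimuli and to handling, were lower in 10 of 13, with a median of -0.82 and none higher. For this list and the 2 that follow, the shares over all genes tested were 25.6% higher and 25.2% lower. Fos fell by 1.09, Zfp36 by 1.10 and Jun by 0.66 on the log2 scale. Interferon response genes were lower in 10 of 21 and higher in 2, with a median of -0.42; Bst2 fell by 0.32 on the log2 scale. Of 14 genes of the germinal centre, switching and mutation, 8 were higher and 3 lower, with a median of 0.54, and those named by expression were Nuggc (0.59), Mef2b (0.48), Apobec3 (-0.36) and Basp1 (-1.19).

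The heavy-chain class of each cell was taken as the constant gene with the most UMIs, which the rule did not use. Of the 569 cycling cells, 427 were IgM, 54 IgG2b, 36 IgG2c, 23 IgG3, 23 IgA and 6 IgG1, and none was IgD or IgE. IgG cells were 23.5% of cycling and 7.53% of no-marker cells in female bone marrow, 8.22 and 3.29% in male bone marrow, 25.7 and 17.7% in female spleen, and 16.1 and 9.12% in male spleen. In female bone marrow many of the IgG cells were related, since IgG2b clones of 5, 3 and 1 cycling cells shared IGHV1-4 and IGHJ2 with CDR3s 1 to 2 bases apart. In the thymus IgG was at 0 of 9 cells against 16.4% in females, and at 13.3 against 12.4% in males. The share was higher in 5 of 6 libraries, by 3.41 percentage points on average, and the exact two-sided sign-flip test gave p = 0.5 (0.75 adjusted over 3 classes). Without the female thymus library, with its 9 cells, the mean difference was 7.38 points and the sign the same in the 5 left, where the smallest p is 0.0625. Against no-marker cells in the depth range of the cycling cells, the mean difference was 1.60 points, with 4 libraries higher and 2 lower. It was 2.40 points at 3 rule-gene UMIs, with 4 higher and 2 lower, and 5.08 points at 10, with 5 higher and 1 lower.

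IgA cells were the rarer among cycling cells in 5 of 6 libraries: 1.47 against 9.75% and 2.74 against 3.57% in female and male marrow, 5.47 against 7.08% and 2.15 against 1.76% in the spleens, and 0 against 16.4% and 6.67 against 10.0% in the thymus libraries. The mean difference was -5.02 percentage points (exact p = 0.0625, adjusted 0.1875), and without the female thymus it was -2.74. Against no-marker cells in the depth range of the cycling cells, the IgA share was lower in 3 libraries and higher in 3, with a mean difference of -4.42 points. IgM was at 75.0 against 82.7% and 89.0 against 93.1% in the bone marrows, 68.8 against 75.3% and 81.7 against 89.1% in the spleens, and 100 against 67.2% and 80 against 77.5% in the thymus (exact p = 0.96875). Neither class passed the test.

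**Figure D5:**
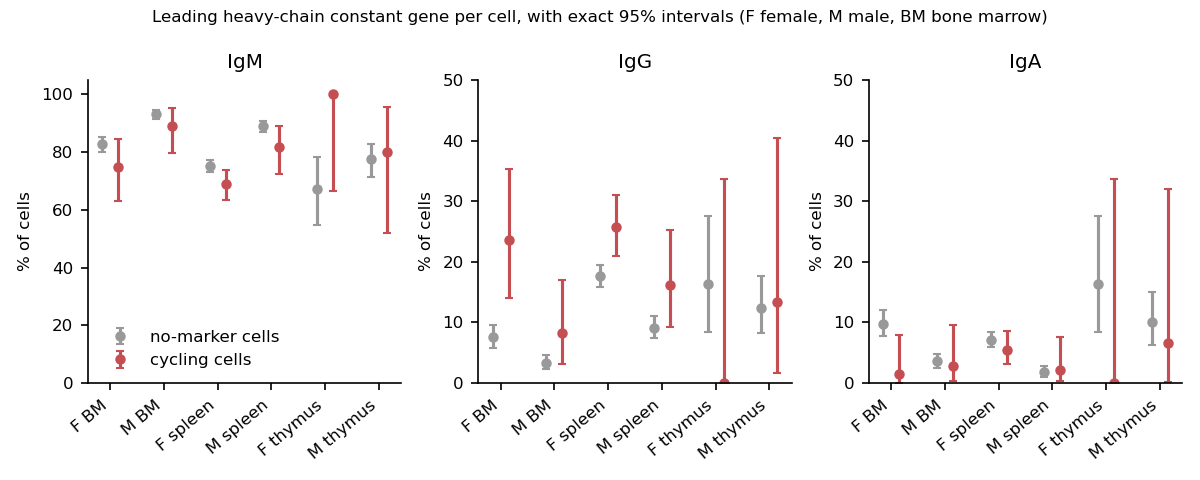
Share of cells (percent) whose leading heavy-chain constant gene was IgM, IgG or IgA, in no-marker (grey) and cycling (red) cells of each library, with exact 95% binomial intervals. Red lies above grey for IgG in all bone marrow and spleen libraries, and the thymus intervals for cycling cells are wide because they rest on 9 and 15 cells.

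Heavy-chain sequences came from the matching VDJ libraries, whose labels did not line up. The VDJ library labelled female shared its barcodes with the gene expression library labelled male in each tissue, and the reverse: 1718 of 1778 barcodes in bone marrow, 2794 of 2893 in spleen and 706 of 917 in thymus for the former, and 1046 of 1049, 1253 of 1253 and 333 of 667 for the latter. Xist, which is expressed from the inactive X, was at 907 and 644 CPM in cycling cells of the female-labelled bone marrow and spleen gene expression libraries and at 0 and 1.24 CPM in the male-labelled ones. VDJ cells were therefore joined by barcode and carry the label of the gene expression library.

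A single heavy-chain contig was available for 274 cycling cells. These were 95 of 311 in female spleen, 66 of 93 in male spleen, 49 of 68 in female and 41 of 73 in male bone marrow. The class from the contig was the same as from gene expression in 253 of the 265 cycling cells with both (95.5%) and in 98.3% of no-marker cells. By contig, IgG was 34.0 against 9.17% in female bone marrow, 10.8 against 4.94% in male bone marrow, 51.6 against 35.6% in female spleen and 23.1 against 10.9% in male spleen. The female spleen values do not stand for all its cells, since gene expression gave 25.7 against 17.7% IgG over all of them. In the thymus it was 0 against 16.9% and 13.3 against 13.7%, and the exact p over 6 libraries was 0.3125.

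The 274 cells fell into 217 clones, defined by the same heavy V gene, J gene and CDR3 (the most variable loop of the chain) nucleotides within a library, and 26 clones held 2 or more cycling cells. In 80 clones, which held 130 of the 274, a no-marker cell of the same library shared the heavy chain. The 5 clones with the most cycling cells, and a near neighbour of 1 of them, are shown by their CDR3, 5′ to 3′ as deposited, with the conserved first codon (cysteine) and last codon (tryptophan) in capitals, because they show cycling and no-marker cells that share a heavy chain.
female spleen, IGHV1-78 with IGHJ2: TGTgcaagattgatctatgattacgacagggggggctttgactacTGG
male spleen, IGHV9-3 with IGHJ2: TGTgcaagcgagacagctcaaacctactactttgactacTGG
male bone marrow, IGHV1-66 with IGHJ4: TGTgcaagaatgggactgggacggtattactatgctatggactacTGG
male bone marrow, IGHV8-8 with IGHJ3: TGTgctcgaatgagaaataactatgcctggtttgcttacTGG
female bone marrow, IGHV1-4 with IGHJ2: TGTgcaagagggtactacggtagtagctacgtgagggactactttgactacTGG
female bone marrow, IGHV1-4 with IGHJ2, neighbour: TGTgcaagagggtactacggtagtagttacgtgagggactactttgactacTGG

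The female spleen clone had 9 cycling, 31 no-marker and 25 intermediate cells among 65 kept, and its 9 cycling cells were 5 IgA, 2 IgG1, 1 IgG2b and 1 IgG2c by contig. The male spleen clone was the largest, with 955 VDJ cells, of which 391 were kept, 7 cycling and 227 no-marker, and its cycling cells were all IgM. The bone marrow clones of males held 5 cycling cells each, with 38 and 22 no-marker cells. In female bone marrow, the IGHV1-4 clone had 5 cycling cells, all IgG2b, and its neighbour 3, also IgG2b. The neighbour's CDR3 differed by C27T, counted from 1 at the 5′ end of the CDR3. The 6 clones shown held from 6 to 955 VDJ cells, and each had no-marker cells beside its cycling cells.

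No difference in clone size between the states passed the test, whose smallest p over 6 libraries is 0.03125. Cells in clones of 2 or more made up 65.3% of cycling and 61.8% of no-marker cells in female bone marrow, 87.8 and 74.7% in male bone marrow, 58.9 and 54.0% in female spleen, and 57.6 and 63.3% in male spleen. In the thymus the shares were 87.5 and 60.0% in females and 66.7 and 61.7% in males. The share was higher in cycling cells in 5 of 6 libraries, by 8.06 percentage points on average (exact p = 0.15625, adjusted 0.20833 over 4 clone measures), and by 4.17 points without female thymus. The share whose heavy chain was also in another library was higher by 5.32 points (exact p = 0.09375, adjusted 0.1875), by 1.04 points without the barcodes shared between libraries, by 3.16 points without female thymus, and by 8.72 points with clones defined by CDR3 amino acids (adjusted p = 0.08333, exact). The CDR3 was longer by 0.46 amino acids on average (exact p = 0.0625, adjusted 0.1875), and by 0.28 without female bone marrow.

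Between tissues, cycling cells differed in few genes. Of 7234 genes tested in the 4 libraries, with sex in the model, 9 were higher in spleen than in bone marrow (0.124%) and 16 lower (0.221%), and 246 had an unadjusted p under 0.05. Without the 2 neutrophil-rich cells the counts were 5 and 3. The largest falls, S100a8, S100a9, Camp, Ngp, Wfdc21 and Pglyrp1, are granule or secreted genes of neutrophils, which those 2 cells carried. S100a9 was still called without them (-7.84, adjusted p = 2.41e-05). No-marker cells showed the same order for S100a9, at 28.7 and 32.9 CPM in female and male marrow and 0.114 and 0 CPM in spleen. S100a8 held 1291 and 2767 CPM in the female and male marrow libraries and no UMI in cycling cells of either spleen. Among the rises, Epcam, an adhesion molecule, was at 34.4 and 43.0 CPM in bone marrow and at 175 and 133 CPM in spleen (1.96 ± 0.34, adjusted p = 4.8e-06, and 0.000111 without the neutrophil-rich cells). Its no-marker cells showed the same order, at 103 and 121 against 199 and 171 CPM. Isg15, an interferon-induced ubiquitin-like protein, was at 44.9 and 40.6 against 258 and 104 CPM (1.96, adjusted p = 1.11e-05). In no-marker cells it was at 50.7 and 63.3 against 138 and 42.1 CPM.

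Bcl2l11 (BIM), which promotes apoptosis, was at 32.9 and 16.7 CPM in bone marrow and 57.4 and 120 CPM in spleen (1.74, adjusted p = 0.000463). Igtp, an interferon-induced GTPase, was at 22.5 and 38.2 against 69.8 and 101 CPM (1.48, adjusted p = 0.00679), a call made in 4 of 9 alternatives. Ifi27l2a (1.43, adjusted p = 0.0288) passed, and did not without the neutrophil-rich cells (adjusted p = 0.119). No-marker cells of marrow and spleen held 36.5 and 41.2 against 67.7 and 56.2 CPM of Igtp. They held 188 and 88.4 against 675 and 205 CPM of Ifi27l2a, and 48.6 and 68.2 against 73.6 and 69.0 CPM of Bcl2l11. Of 15 interferon genes tested here, 3 were higher in spleen, and none of the replication or mitosis genes was called. Cycling cells of both tissues were chosen by the same threshold on division genes, so the lack of calls in those lists is a description. With 4 libraries and 1 residual degree of freedom this fit assumes that sex acts alike in both tissues.

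Between the sexes, 22 of the 7234 genes were higher in male cycling cells (0.304%) and 33 lower (0.456%), with 1337 at an unadjusted p under 0.05. Sex-linked genes led: Xist was lower, and the Y-linked Eif2s3y and Ddx3y were at 59.7 to 85.2 CPM in male and at 0 UMIs in female cycling cells. Fos was at 242 and 201 CPM in female bone marrow and spleen against 23.9 and 60.5 CPM in male (-2.71 ± 0.35, adjusted p = 9.89e-12), and the no-marker cells showed the same order, at 509 and 341 against 95.4 and 124 CPM. Cd69, another activation gene, was at 82.3 and 55.6 against 16.7 and 35.8 CPM (-1.62, adjusted p = 0.00169). Ifi27l2a (-2.26), Ly6k (-1.87) and Ggh (-1.66) were lower in males as well. The untested thymus cycling cells ran the other way for these genes and for Cd69, while Fos kept its order there. Ifi27l2a was at 323.8 CPM in female and 2608 CPM in male thymus, and Ly6k at 0 and 267 CPM. Ggh was at 0 and 31.05 CPM and Cd69 at 0 and 12.42 CPM. No-marker cells of bone marrow also held less Ggh in females, at 84.73 against 104.5 CPM, and those of spleen more, at 130.1 against 51.69 CPM. Bard1, Nup160 and Gm46620 were higher in males by 1.47, 1.38 and 1.3 (adjusted p = 0.00613, 0.0173 and 0.0248), calls made in 6, 5 and 5 of 8 alternatives. In thymus cycling cells Bard1 was at 108 CPM in females and 37.3 CPM in males, while Nup160 and Gm46620 kept their order. Ngp (4.89) rests on 1 male bone marrow cell. Each sex is a separate pool and library in a tissue, so a difference between the sexes and a difference between pools or their handling cannot be told apart.

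The difference between the states was itself compared between the tissues. Of 10499 genes, 7 had a more positive difference in spleen (0.0667%) and 40 a more negative one (0.381%), with 666 at an unadjusted p under 0.05. Cyclin A2 (Ccna2) was at 298 and 291 CPM in cycling cells of bone marrow and 212 and 241 CPM in spleen, and at 0.905 and 1.26 against 5.36 and 6.40 CPM in no-marker cells. Its fold was smaller in spleen, with an interaction of -2.68 on the log2 scale, and the no-marker levels differed more between the tissues than the cycling levels. Ccna2 goes with the rule genes, so this is a description. Its no-marker levels are close to 0, and the size of the interaction depends on the prior count. Tnfrsf17 fell in both tissues and less in spleen, by 0.97 (adjusted p = 0.0304, a call made in 3 of 7 alternatives), with 65.9 and 58.5 CPM in bone marrow against 140 and 111 CPM in spleen cycling cells.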

How the data were processed

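Single-cell RNA and B cell receptor (VDJ) libraries of sorted cells were used, 6 of each. The deposited matrices hold UMI counts per gene and barcode, which the authors made with Cell Ranger (6.0.2 and 4 per the file headers; builds GRCm38 and mm10 per the submitters' processing notes). Members of the group and gene lists were chosen with earlier results of these data known.

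UMIs were summed per gene, library and state, without immunoglobulin and rule genes. Sums were tested with edgeR 4.0.16 (R 4.3.3; TMM, filterByExpr, quasi-likelihood F-test, library as block, Benjamini-Hochberg over all genes, threshold 0.05), and the code was tested on simulated data. Libraries under 20 cycling cells (both thymus libraries) were left out of gene tests. Medians and shares per library were compared by exact two-sided sign-flip tests. Promoter letters came from RefSeq's table. DESeq2 1.42.0, other scalings, filters, thresholds and left-out libraries were alternatives. The design joined VDJ libraries by label; they were joined by barcode instead.

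Named genes were the 12 with the largest rise and fall outside the cycle lists and histones (at least 50 CPM, all libraries alike), up to 4 called genes of each list with the highest CPM, and a set of 22 regulators; between tissues or sexes, the 6 largest each way. A few genes that this rule names are not reported here.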

Additional observations from a re-analysis of the deposited data

Results flagged for a closer look

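The difference between cycling and no-marker cells itself differed between spleen and bone marrow in 7 and 40 genes, more positive and more negative in spleen (edgeR interaction term, adjusted p under 0.05). Given here are the 6 largest each way among those that reach 50 CPM in a state; values are the spleen log2 difference minus the bone marrow one. It was more negative in spleen for Cdkn3 (-3.389), Pglyrp1 (-3.156), Ccna2 (-2.684), Spc24 (-2.226), Hist1h2ab (-1.994) and Hist1h1b (-1.853). Pglyrp1 was at -0.09 (adjusted p = 0.992) without the 2 neutrophil-rich bone marrow cells. In the 5 other genes, the no-marker cells of spleen held more CPM than those of bone marrow: Hist1h1b stood at 55.8 and 45.0 CPM in the female and male spleens, against 22.6 and 14.8 CPM in bone marrow. These 5 are division or histone genes that go with the rule genes, so their values are a description. In no-marker cells of female and male marrow, Cdkn3 was at 0.302 and 0.180 CPM and Ccna2 at 0.905 and 1.26 CPM. Spc24 was at 1.51 and 1.62 CPM there. Fitted differences of genes this close to 0 depend on the prior count. The difference was more positive in spleen for Wnt10a (2.574), Isg15 (1.492), Epcam (1.304), Serpina3g (1.242), Tnfrsf17 (0.973) and Fcer1g (0.911). Wnt10a was at 2.99 and 4.78 CPM in cycling cells of bone marrow against 48.0 and 85.7 CPM in no-marker cells, and at 10.7 and 17.3 against 34.5 and 41.3 CPM in spleen.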

How the results depend on the processing

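Genes called higher and lower in cycling cells (2547 and 2509) numbered 1620 and 1588 with no replicate block, 786 and 719 after thinning to 1000 UMIs, and 1572 and 1316 in cells under 10% ribosomal UMIs; lower genes were 1587 with DESeq2, 1558 at a light-chain purity of 80% and 1525 in cells of at least 10% ribosomal UMIs. Leaving out 1 library gave 2185 to 2496 higher and 1812 to 2095 lower. Between tissues and between sexes the other factor is already in the model as a block, and leaving out a library there leaves no residual degree of freedom. Higher and lower in spleen (9 and 16) were 1 and 3 with DESeq2, 5 and 1 at 10 rule-gene UMIs, 5 and 3 without neutrophil-rich cells, 3 and 3 under 10% ribosomal, with 31 higher at 80% purity and 39 lower without a filter. Higher and lower in males (22 and 33) were 1 and 18 with DESeq2, 8 and 17 at 10 UMIs, 9 and 14 without neutrophil-rich cells, 12 and 21 without shared barcodes, 81 and 125 at 80% purity, and 13 higher under 10% ribosomal. Interaction calls (7 and 40) were 4 and 15 with DESeq2 and 1 and 13 under 10% ribosomal; higher calls were 17 without a filter, 14 at 10 UMIs, 13 without neutrophil-rich cells and 13 without shared barcodes, and lower calls 26 with RLE scaling.

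The mean share of cycling cells was 9.93% at 3 rule-gene UMIs and 4.07% at 10. Against no-marker cells in the depth range, which cycling cells still exceeded by a mean of 1034 UMIs, mean differences passed the adjusted threshold for genes at 1000 UMIs (80.6) and immunoglobulin percent (-29.8), and the ribosomal percent turned to -4.88. At 80% purity they passed for genes (73.7), immunoglobulin (-30.4) and ribosomal percent (4.97). In the exact sign-flip test, every result that passed stood at p = 0.03125, the smallest possible. Genes and immunoglobulin stood at the same p without these limits. The adjusted values passed because more measures reached that p, among them some that entered the choice of cells. Depth, mitochondrial share and light-chain purity entered the choice of cells, so their differences are descriptions: mitochondrial 1.59 and purity -12.9 points in the depth range, and 7755 UMIs at 80% purity. Leaving out 1 library, light-chain purity ran from -3.49 to 0.75, the IgM share from -4.64 to 3.47 and by contig from -7.97 to 1.60 points; IgM was -0.38 at 10 UMIs and 1.23 by contig at 3 UMIs.

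Of 3212 values of 166 gene results, 2951 kept their call, 216 lost it, 4 gained one and 41 turned sign. Under 10% ribosomal UMIs the log2 values that turned were Sec61b -0.16, Nme2 -0.15, Atp5e -0.71, Cox4i1 -0.069, Nop10 -0.49, Cd68 0.14, Rpl13 -0.047, Prdm1 -0.18, Ccnd3 -0.074 and, for the interaction, Isg15 -0.38 and Fcer1g -0.67. At 10% or more they were Isg15 -0.055 and Irf4 0.061, and with a heavy-chain contig Isg15 -0.21. In the depth range they were Atp5e -0.014, Cox4i1 -0.065, Nop10 -0.069 and Prdm1 -0.12; thinned, Cox4i1 -0.041, Nop10 -0.13, Cd2 -0.29, Prdm1 -0.20 and Ccnd3 -1.06. At 10 UMIs, at 80% purity and without neutrophil-rich cells, S100a9 was -1.05, -0.94 and -0.99, S100a8 -1.48, -1.56 and -1.68, Camp -1.67, -1.46 and -1.88, and Ngp -1.18, -1.35 and -1.15. Ccnd3 was -0.02 without those cells. Ptprc, near 0, was -0.014 without a filter, -0.016 at 3 UMIs, -0.001 at 10 and -0.055 over 6 libraries, and ran from -0.03 to 0.131 when 1 library was left out. The causes were not tested. Thymus counts (9 and 15 cells) limit what can be said there, and alternatives on ribosomal share, free RNA, contigs, neutrophil-rich cells, shared barcodes and all 6 libraries were chosen after seeing the data.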

Other observations

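Genes outside the naming rule, chosen after their values were seen, add to the picture of the cycling cells. Cxcr3, a receptor for interferon-induced chemokines, was at 139, 294, 166 and 144 CPM in cycling cells of female and male marrow and female and male spleen, and at 31.4, 34.4, 78.9 and 55.4 CPM in no-marker cells (log2 fold change 1.80 in edgeR). H2-DMb2, a chain of the peptide-loading protein H2-M, was at 47.9, 64.5, 47.7 and 39.5 CPM against 3.62, 4.86, 8.78 and 5.06 CPM (2.98). The pro-apoptotic gene Bbc3 (PUMA), with its levels given above, had a log2 fold change of -3.40. Slc7a5, the light chain that pairs with Slc3a2 in CD98, fell by 1.17 on the log2 scale.

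Outside the kept cells, 916 of 17049 barcodes with at least 1000 UMIs outside immunoglobulin genes also held 5 or more rule-gene UMIs (5.37%). Of these, 887 were under the mitochondrial limit and so failed the light-chain rule, by a purity under 50% or by having no light-chain variable UMI. The 916 barcodes numbered 555 in female spleen, 204 in male spleen, 89 and 43 in female and male marrow, and 8 and 17 in female and male thymus. They enter no comparison here, and whether they hold doublets, free light-chain RNA or other cells was not tested.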
